A study of Saccharomyces cerevisiae with 28 samples.

Results

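Wild-type budding yeast held at 36 °C in synthetic complete (SC) medium was compared between 8 h and 2 h, in 8 of the 28 libraries of the series: ribosome footprints and total mRNA from 2 replicates at each time. The WT strain is YWG1245 (YAJ3). It grew in SC with 2% raffinose, received 2% galactose for 30 min, and was then shifted to 36 °C for 2 h or 8 h. Cycloheximide was added at 0.1 mg/ml just before harvest over ice. The only other strain taken at the same times in SC is YWG1246 (YAJ41), called 4Gts, in which the series depletes the initiation factor eIF4G. It had the same medium, galactose and shift, with 2 replicates at each time. The labels used here give strain names without genotypes. They leave unsaid whether the samples were grown as independent cultures, and every p-value therefore describes spread among the samples at hand, possibly technical in part. Libraries were chosen by strain, medium and time from the labels. Replicate 1 at 8 h was set against replicate 1 at 2 h, and replicate 2 against replicate 2.

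A shift to 36 °C gives budding yeast a moderate heat stress: chaperone and general stress genes under Hsf1 and Msn2/Msn4 are induced within minutes, genes for ribosomes are repressed, and most of this response fades as cells adapt. What remains hours later can reflect growth at the higher temperature or the state of the medium, among other things, and these were not told apart here. Galactose induces the GAL genes through Gal4 once Gal3 relieves the block by Gal80. Ribosome footprints count the mRNA pieces that ribosomes cover, so the ratio of footprints to mRNA, called translational efficiency (TE), is a relative measure of ribosomes per message.

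Values are RPKM, read counts scaled to the length of the gene and the depth of the library. Differences between 8 h and 2 h are on the log2(RPKM + 1) scale after rescaling each library by its median ratio, and fold changes of low genes are understated there. Of 6692 reading frames in the SC tables, 4689 averaged at least 10 RPKM in both layers and were tested, 338 of them on chromosome II. Read depth, recovered from the step size of low values, was between 5.34 and 11.1 M reads in the 4 footprint libraries and between 11.6 and 18.1 M reads in the 4 mRNA libraries. At these depths a gene of 1 kb at 10 RPKM had a counting error between 9.50% and 13.7% for footprints and between 7.44% and 9.29% for mRNA, and this covers counting error only. As a check of the cells, the 6 a-cell genes listed summed to between 1322 and 5374 mRNA RPKM in the 4 samples, and the 4 alpha-cell genes to between 64.9 and 161 mRNA RPKM. Single genes were closer in replicate 2, where the a-cell protease BAR1 was at 28.3 and 27.8 RPKM and the alpha-cell pheromone gene MF(ALPHA)1 at 84.6 and 101.7 RPKM.

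The time change was small beside the difference between the replicates. Within a pair, 98.2% and 98.98% of the 4689 genes were within 1.5-fold of their 2 h mRNA level in replicates 1 and 2, and 98.1% and 98.998% of genes for footprints. The standard deviation across genes of the 8 h minus 2 h difference was 0.23 and 0.20 for mRNA and 0.22 and 0.18 for footprints. The standard deviation of replicate 1 minus replicate 2 was 0.72 at 2 h and 0.73 at 8 h for mRNA, and 0.81 and 0.86 for footprints. What set the replicates apart at 2 h was still there at 8 h: across genes, the replicate difference at 2 h correlated with that at 8 h with r = 0.93 for mRNA, 0.96 for footprints and 0.60 for TE, over genes that share libraries. Part of that difference is visible in known genes of resting cells, a list of 6 genes whose summed mRNA was 49.3 RPKM at 2 h and 83.0 RPKM at 8 h in replicate 1, against 1736 and 2061 RPKM in replicate 2. The summed mRNA of 6 a-cell genes was 5374 and 4933 RPKM in replicate 1 and 1361 and 1322 RPKM in replicate 2. In such bulk samples, fewer cells of a kind and less RNA per cell cannot be told apart. The part of these differences in the results below was not tested.

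No gene passed the threshold for a time effect when the replicates were taken as independent. limma with Benjamini-Hochberg adjustment called 0 of 4689 genes (0%) at an adjusted p below 0.05 for mRNA, for footprints and for TE, with 3 (0.064%), 2 (0.0427%) and 25 (0.533%) genes at an unadjusted p below 0.05. The lowest adjusted p was 0.141, for TE. With the pair as a block and the WT samples alone, footprints gave 18 genes that rose (0.384%) and 27 that fell (0.576%), while mRNA and TE gave 0, with 335 (7.14%) and 249 (5.31%) genes at an unadjusted p below 0.05, against 632 (13.5%) for footprints. That fit leaves 1 residual degree of freedom for each gene and leans on the variance shared across genes. With strain and number as the block over all 8 cultures it called 0 genes in each layer, with 71 (1.51%), 208 (4.44%) and 97 (2.07%) at an unadjusted p below 0.05 for mRNA, footprints and TE.

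The 2 pairs moved the same way in somewhat more genes than not for mRNA and footprints, but hardly so for TE. For mRNA, 1194 genes (25.5%) were higher in both pairs and 1359 (29%) lower in both, so that 54.4% had the same sign. For footprints these were 1274 genes (27.2%), 1436 (30.6%) and 57.8%, and for TE 1173 genes (25%), 1182 (25.2%) and 50.2%. Pearson's r between the pairs was 0.17 for mRNA, 0.29 for footprints and 0.07 for TE over 4689 genes. Within a pair, the change in mRNA and the change in footprints correlated with r = 0.34 in both replicates. Changes of at least 2-fold in both pairs were nearly absent: for mRNA 2 genes higher (0.0427%) and 1 lower (0.0213%), for footprints 0 and 0, and for TE 0 higher and 3 lower (0.064%). At 1.5-fold the counts were 4 (0.0853%) and 2 (0.0427%) for mRNA, 5 (0.107%) and 6 (0.128%) for footprints, and 0 and 9 (0.192%) for TE.

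**Figure D1:**
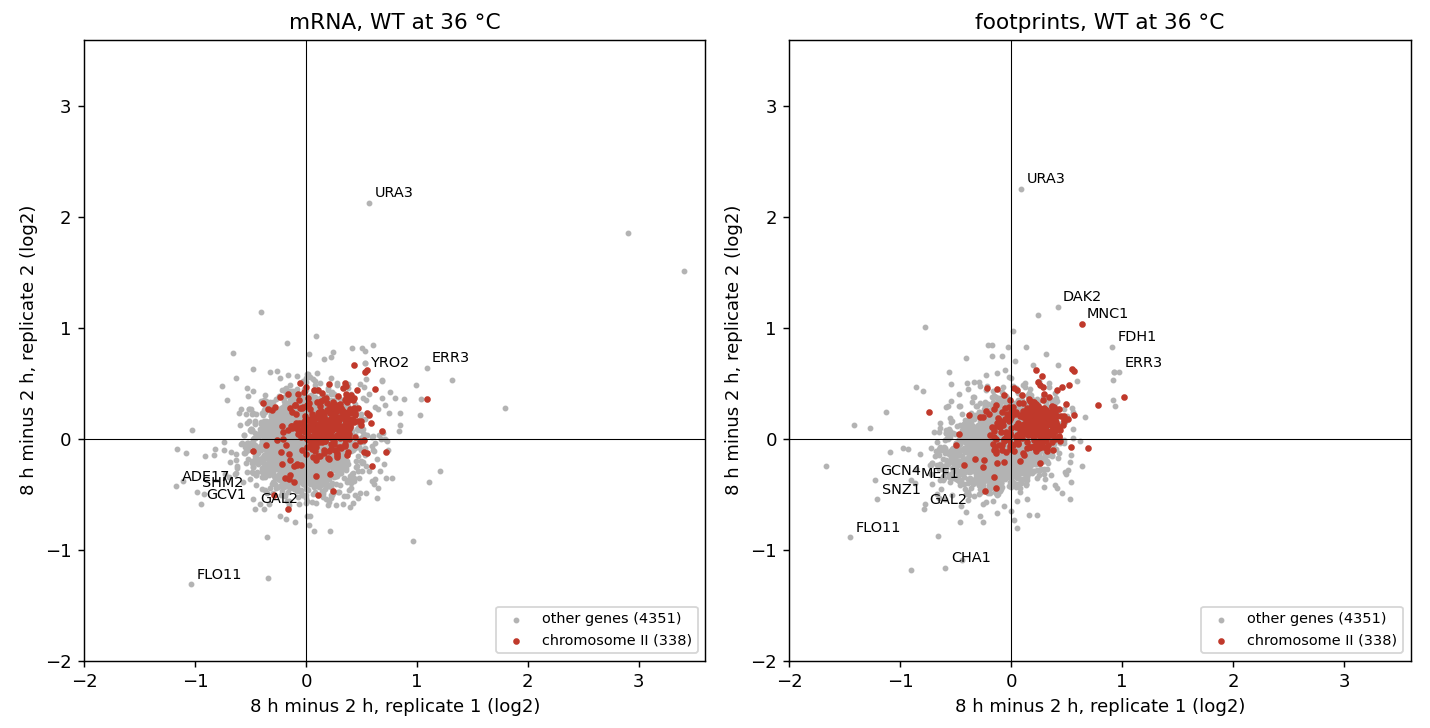
Difference between 8 h and 2 h (log2) in replicate 1 on the horizontal axis and in replicate 2 on the vertical axis, for mRNA (left) and footprints (right); each point is 1 of 4689 genes, and the 338 genes of chromosome II are red. Most genes lie near 0 in both pairs, FLO11 stands out at the lower left, and the red points are shifted to the upper right.

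FLO11, the cell surface flocculin of invasive growth and biofilms, was the 1 named gene at least 2-fold lower in mRNA in both pairs. Its mRNA was 380 RPKM at 2 h and 186 RPKM at 8 h in replicate 1, and 187 and 78.1 RPKM in replicate 2. Its footprints were 115 and 40.9 RPKM in replicate 1, and 34.9 and 18.2 RPKM in replicate 2. Each sample was lower at 8 h than its partner at 2 h, while replicate 2 at 2 h was level with replicate 1 at 8 h in mRNA and below it in footprints, so the times overlapped after rescaling. The changes were −1.04 and −1.31 for mRNA and −1.45 and −0.89 for footprints, on the log2 scale. The footprint change fell short in the fit without pairs (SE 1.58, limma adjusted p = 1) and passed in the blocked WT fit (SE 0.12, limma adjusted p = 0.000749). In 4Gts the footprints went the other way, by 0.64 and 1.48; the difference between the strains was −2.23 (SE 2.23) and did not pass (limma, unadjusted p = 0.355).

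Genes of galactose use were lower at 8 h. Of the 10 tested genes of the galactose list, all 10 had lower footprints in both pairs, against 30.6% of all genes, and 8 had lower mRNA in both, against 29%. The list median was −0.16 and −0.27 for footprints and −0.13 and −0.27 for mRNA in replicates 1 and 2, where the medians over all 4689 genes were between −0.02 and 0.00. For TE the median was −0.05 and −0.02, with 5 of 10 genes lower in both pairs, against 25.2% of all genes. Leaving out the 3 members on chromosome II gave a footprint median of −0.17 in place of −0.26 for the mean of both pairs.

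GAL2, the galactose permease, led the list. Its mRNA was 1589 and 1161 RPKM at 2 h and 8 h in replicate 1, and 2036 and 1372 RPKM in replicate 2. Its footprints were 493 and 281 RPKM in replicate 1, and 548 and 348 RPKM in replicate 2. In both layers the 8 h values lay below all 2 h values after rescaling, which held for 268 genes (5.72%) in mRNA and 319 (6.8%) in footprints, while 238 (5.08%) and 187 (3.99%) lay above without overlap. The footprint changes were −0.79 and −0.64, and GAL2 was the 1 galactose gene to fall in the blocked WT fit (limma adjusted p = 0.00382).

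The enzymes of the pathway moved less than GAL2. GAL1, GAL10 and GAL7 are on chromosome II, whose tested genes had median footprint changes of 0.20 and 0.12. GAL2 is on chromosome XII, and the part of the chromosome in this comparison was not tested. GAL1, galactokinase, had footprints of 8292 and 6949 RPKM in replicate 1 and 9614 and 6882 RPKM in replicate 2, with 8 h below 2 h and no overlap. Its mRNA was 1481 and 1608 RPKM in replicate 1 and 1927 and 1420 RPKM in replicate 2, so the pairs differed in direction. GAL10, the epimerase, changed by −0.13 and −0.44 in footprints and GAL7, the uridylyltransferase, by −0.15 and −0.34. The regulators were close: GAL3, the galactose sensor, by −0.17 and −0.38, and GAL80, the repressor of Gal4, by −0.11 and −0.20. GAL4 itself did not reach the filter and was not tested, with footprints of 8.92 and 8.88 RPKM in replicate 1 and 16.8 and 16.5 RPKM in replicate 2.

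UBR1, the ubiquitin ligase that recognises destabilising N-termini and is used to drive degron systems, was lower at 8 h in both pairs. Its mRNA was 713 and 523 RPKM in replicate 1 and 1331 and 1106 RPKM in replicate 2. Its footprints were 554 and 410 RPKM in replicate 1 and 784 and 565 RPKM in replicate 2. The changes were −0.45 and −0.33 for mRNA and −0.41 and −0.45 for footprints, and the footprint change did not pass in the blocked WT fit (limma adjusted p = 0.0579).

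Other sugar genes had lower mRNA in replicate 1 more than in replicate 2. Of 14 genes of hexose transport and sucrose cleavage, 9 had lower mRNA in both pairs and 2 had higher, against 29% and 25.5% of all genes. The mRNA medians were −0.41 and −0.07. For footprints the medians were −0.27 and 0.02, with 6 genes lower and 3 higher in both pairs, against 30.6% and 27.2% of all genes. SUC2, the invertase that cleaves raffinose, had 563 and 339 mRNA RPKM in replicate 1 but 638 and 620 RPKM in replicate 2. HXT5, a hexose transporter of slow-growing cells, had higher mRNA in both pairs, by 0.65 and 0.27. It differed far more between the replicates, with 11.4 and 18.5 mRNA RPKM in replicate 1 against 309 and 389 RPKM in replicate 2.

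**Figure D2:**
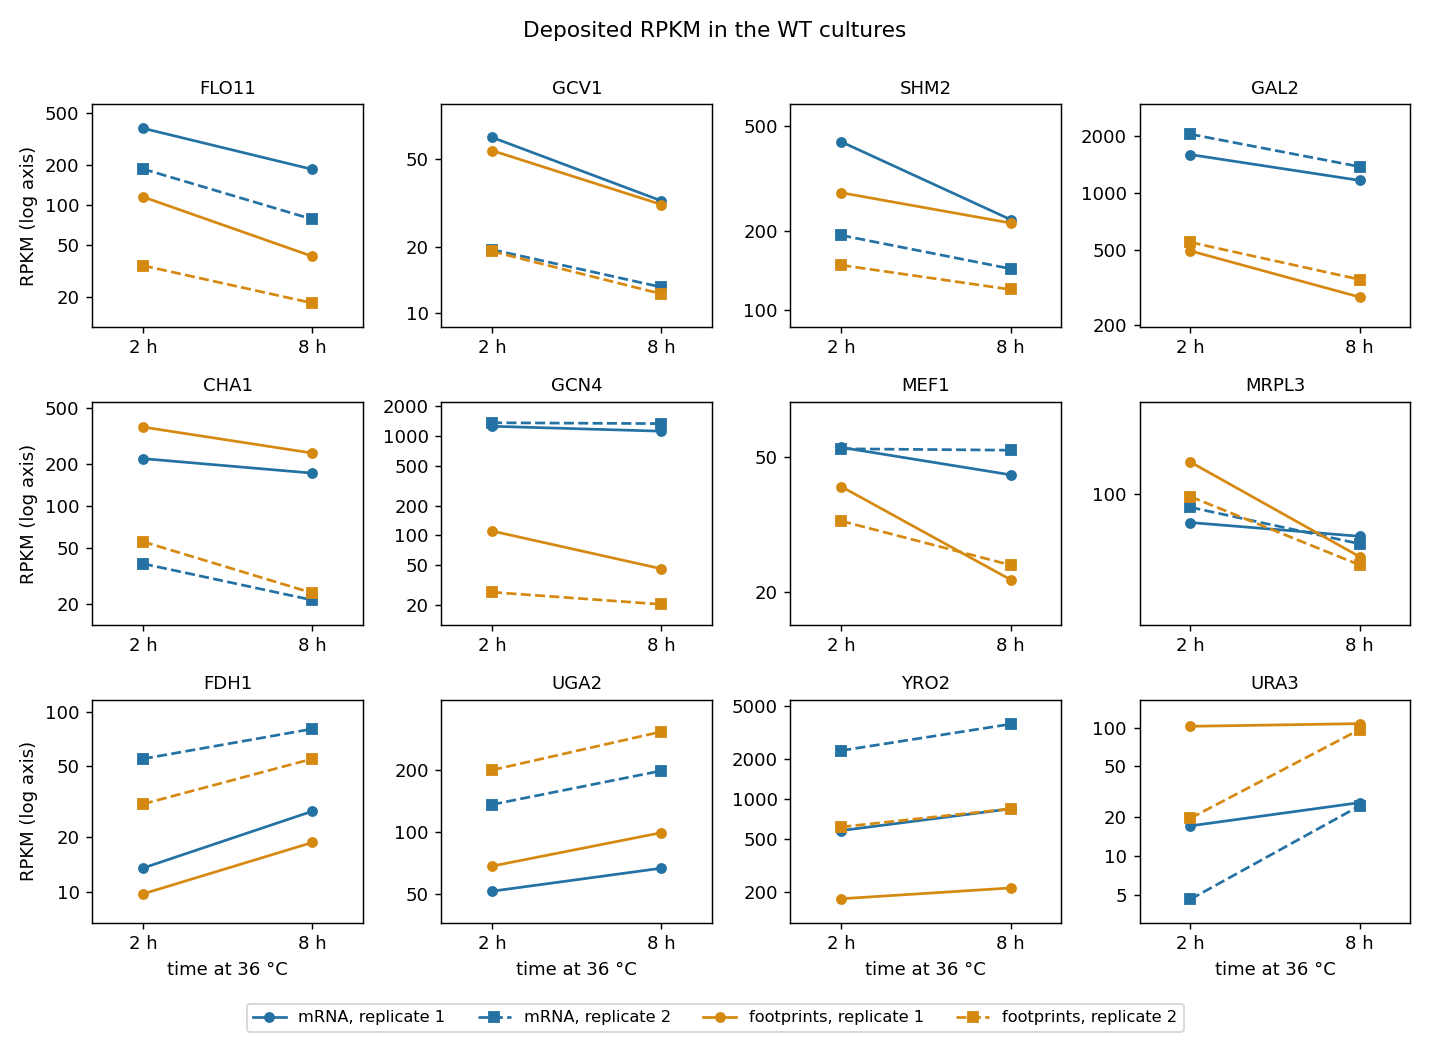
Deposited RPKM (log axis) at 2 h and 8 h for 12 genes in the WT cultures; blue is mRNA, orange is footprints, circles with full lines are replicate 1 and squares with broken lines are replicate 2. FLO11, GCV1, SHM2, GAL2, CHA1, GCN4, MEF1 and MRPL3 are lower at 8 h in both replicates and FDH1, UGA2 and YRO2 higher, and replicate 2 of URA3 is low at 2 h (4.60 mRNA RPKM and 19.7 footprint RPKM).

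Proteins of the mitochondrial ribosome had lower footprints at 8 h. These nuclear-encoded proteins build the ribosome that translates the few messages of the mitochondrial genome, mostly core subunits of the respiratory chain. All 71 tested members had lower footprints at 8 h in replicate 1 and 66 did in replicate 2, so 66 of 71 were lower in both pairs and 0 higher in both, against 30.6% and 27.2% of all genes. The median footprint change was −0.32 in replicate 1, with quartiles at −0.43 and −0.21, and −0.23 in replicate 2, with quartiles at −0.29 and −0.12. For mRNA 42 of 71 were lower and 6 higher in both pairs (medians −0.16 and −0.10), and for TE 39 were lower and 1 higher (medians −0.14 and −0.10). Of all genes, 29% had lower and 25.5% higher mRNA in both pairs, and 25.2% lower and 25% higher TE. The 64 members outside chromosome II had a footprint median of −0.28 over both pairs, against −0.27 for all 71. The 5 members without a lower value in both pairs were MRPL36, MRPL37, MRP8, RSM22 and KGD4, chosen for naming after their values were seen; KGD4 is a subunit of the ketoglutarate dehydrogenase complex that was formerly counted with this ribosome, and MRPL36 and MRPL37 are on chromosome II.

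MRPL3, a large-subunit protein, led the list. Its footprints were 117 and 74.05 RPKM in replicate 1 and 98.9 and 71.2 RPKM in replicate 2, while its mRNA was 87.3 and 81.7 RPKM in replicate 1 and 93.9 and 78.8 RPKM in replicate 2. Both 8 h footprint values lay below both 2 h values. The footprint changes were −0.63 and −0.45, and it was the 1 member to fall in the blocked WT fit (limma adjusted p = 0.0226). MRPL15, also of the large subunit, changed by −0.46 and −0.37 in footprints and by −0.39 and −0.29 in mRNA. MRPL24 changed by −0.39 and −0.26 in footprints with mRNA at −0.04 and 0.06.

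The 27 genes that fell in footprints in the blocked WT fit include others whose products act in mitochondria, named here by function after their values were seen and forming no list. MEF1, the mitochondrial elongation factor G, had 41.0 and 21.7 footprint RPKM in replicate 1 and 32.4 and 24.02 RPKM in replicate 2, with mRNA of 53.6 and 44.4 RPKM in replicate 1 and 53.1 and 52.6 RPKM in replicate 2. Its 8 h footprints lay below its 2 h footprints without overlap (changes −0.87 and −0.40, limma adjusted p = 0.0214 in that fit). MSF1, the mitochondrial phenylalanyl-tRNA synthetase, changed by −0.73 and −0.32, and MSS116, a helicase for mitochondrial introns, by −0.62 and −0.37. COX23, a factor for cytochrome oxidase assembly, changed by −0.60 and −0.54 in footprints and −0.45 and −0.41 in mRNA. Of 36 nuclear genes of the respiratory chain itself, 14 had lower and 9 higher footprints in both pairs, against 30.6% and 27.2% of all genes. The medians were −0.05 and 0.00.

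In 4Gts the mitochondrial ribosomal proteins had median footprint changes of 0.08 and −0.03, with 14 of 71 lower and 20 higher in both pairs, and median mRNA changes of 0.07 and 0.16. A limma test of the difference between the strains' time changes called 0 of 4689 genes (0%) in mRNA, footprints and TE, with 14 (0.299%), 5 (0.107%) and 91 (1.94%) at an unadjusted p below 0.05. The list's difference was not tested.

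Purine synthesis and one-carbon metabolism, which supply bases and methyl and formyl groups, had lower mRNA at 8 h. Of 22 genes, 17 had lower mRNA in both pairs and 2 had higher, against 29% and 25.5% of all genes. The medians were −0.21 and −0.26 for mRNA and −0.11 and −0.05 for footprints. For TE the medians were 0.14 and 0.14, with 15 genes higher and 2 lower in both pairs, against 25% and 25.2% of all genes. The list moved the same way in 4Gts in mRNA and TE, but not in footprints. There the mRNA medians were −0.10 and −0.24, and the TE medians 0.18 and 0.22 with 14 genes higher and 2 lower in both pairs. The footprint medians in 4Gts were 0.17 and −0.01, with 8 genes higher and 1 lower in both pairs. In WT 4 genes had higher and 11 lower footprints in both pairs.

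GCV1, a subunit of the glycine cleavage system that yields one-carbon units, had 62.7 and 32.3 mRNA RPKM in replicate 1 and 19.4 and 13.1 RPKM in replicate 2. Its footprints were 54.6 and 31.1 RPKM in replicate 1 and 19.1 and 12.2 RPKM in replicate 2. mRNA and footprints changed alike, by −0.95 and −0.59 and by −0.78 and −0.59, and the footprints fell in the blocked WT fit (limma adjusted p = 0.00521). SHM2, the cytosolic serine hydroxymethyltransferase, had 435 and 220 mRNA RPKM in replicate 1 and 192 and 143 RPKM in replicate 2. Its mRNA changed by −0.99 and −0.48, and its footprints by −0.36 and −0.29. ADE17, an enzyme of the last steps to IMP, changed by −1.17 and −0.43 in mRNA and by −0.44 and −0.15 in footprints. The mitochondrial isozyme SHM1, on chromosome II, went the other way in mRNA, by 0.36 and 0.18.

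Other biosynthetic genes among the 10 largest mRNA falls were GLN1, glutamine synthetase, at −0.47 and −0.55, and URA1, dihydroorotate dehydrogenase of pyrimidine synthesis, at −0.57 and −0.39. RGI2, a gene known for induction under respiration, was at −0.92 and −0.50, and AQY2, an aquaporin, at −0.41 and −0.58. RGI2 also differed strongly between the replicates, with 10.1 and 4.95 mRNA RPKM in replicate 1 against 85.2 and 62.5 RPKM in replicate 2.

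URA3, orotidine-phosphate decarboxylase, had 1 sample far from the rest. Its mRNA was 17.1 and 26.0 RPKM in replicate 1, and 4.60 and 24.6 RPKM in replicate 2. Its footprints were 102 and 107 RPKM in replicate 1, and 19.7 and 96.6 RPKM in replicate 2. The 2 h sample of replicate 2 was far below the other 3 in both layers. The mRNA changes were 0.57 and 2.13 (limma, mean 1.35, SE 0.56, unadjusted p = 0.0476, adjusted p = 1).

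Amino acid uptake, breakdown and control showed single genes rather than a list. CHA1, the serine and threonine deaminase that lets cells use these amino acids as nitrogen source, had 364 and 238 footprint RPKM in replicate 1 and 55.8 and 24.1 RPKM in replicate 2. It fell in the blocked WT fit by −0.59 and −1.16 (limma adjusted p = 0.00386), with mRNA changes of −0.35 and −0.89. DIP5, a permease for acidic amino acids, changed by −0.45 and −1.09 in footprints and −0.34 and −1.26 in mRNA. Of 43 genes of amino acid synthesis and Gcn4 control, 9 had lower and 14 higher footprints in both pairs, against 30.6% and 27.2% of all genes.

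GCN4, the activator of amino acid synthesis whose translation is held down by upstream reading frames, had lower footprints with little change in mRNA. Its mRNA was 1254 and 1118 RPKM in replicate 1 and 1361 and 1333 RPKM in replicate 2. Its footprints were 111 and 46.2 RPKM in replicate 1 and 26.9 and 20.3 RPKM in replicate 2. Most of the difference was in replicate 1, whose 2 h value stood apart from the other 3. The changes were −1.23 and −0.37 for footprints and −1.05 and −0.28 for TE. The footprint change passed in the blocked WT fit (SE 0.15, limma adjusted p = 0.0228) and not in the fit without pairs (SE 0.77, adjusted p = 1).

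SNZ1, a vitamin B6 synthesis gene known from resting cells, had footprints of 4.61 and 1.45 RPKM in replicate 1 and 27.1 and 18.1 RPKM in replicate 2, with mRNA changes of 0.09 and −0.05. STE2, the alpha-factor receptor, changed by −0.53 and −0.50 in footprints and by −0.26 and −0.12 in mRNA. Pheromone response genes had lower mRNA in both pairs for 9 of 13 members and higher for 0, against 29% and 25.5% of all genes. Their medians were −0.12 and −0.12. CRN1, coronin of actin patches, had footprint changes of −0.66 and −0.53 with mRNA changes of −0.16 and −0.16. CAX4 and GPI14, enzymes of dolichol-linked and glycolipid-anchor synthesis, had footprint changes of −0.47 and −0.75, and −0.67 and −0.50, at 5.62 to 14.1 footprint RPKM.

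FDH1 had the largest footprint increase at 8 h by the smaller of both pairs. FDH1, formate dehydrogenase, had 9.70 and 18.8 footprint RPKM in replicate 1 and 30.7 and 54.7 RPKM in replicate 2, and 13.5 and 28.0 mRNA RPKM in replicate 1 and 54.8 and 80.3 RPKM in replicate 2. Each 8 h sample was higher than its partner of the same number at 2 h, while the times overlapped across replicates. The footprint changes were 0.91 and 0.83, and FDH1 rose in the blocked WT fit (limma adjusted p = 0.000981). ERR1, ERR2 and ERR3, which resemble enolase, changed by 0.93 to 0.97 in replicate 1 and 0.60 in replicate 2 in footprints. ERR1 and ERR2 had the same footprint values at the digits printed here (4.35 and 8.98 RPKM in replicate 1, 85.7 and 129 RPKM in replicate 2). These genes are near-identical copies, so how reads were split between them is uncertain and they are not separate observations. The same holds for DDI2 and DDI3, near-identical to each other, at 0.94 and 0.30 and at 0.92 and 0.35. DAK2, a dihydroxyacetone kinase, changed by 0.42 and 1.19 from footprints of 0.163 RPKM in replicate 1 and 24.4 RPKM in replicate 2 at 2 h.

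General stress genes, the targets of Msn2 and Msn4, were modestly higher at 8 h. Of 36, 25 had higher mRNA in both pairs and 4 lower, against 25.5% and 29% of all genes. For footprints 24 were higher and 2 lower, against 27.2% and 30.6% of all genes. The medians were 0.26 and 0.11 for mRNA and 0.20 and 0.13 for footprints. CTT1, the cytosolic catalase, had 143 and 183 mRNA RPKM in replicate 1 and 449 and 545 RPKM in replicate 2, and changed by 0.37 and 0.35 in footprints. HSP12, a membrane stabilising stress protein, changed by 0.25 and 0.21 in mRNA, and ALD3, an aldehyde dehydrogenase, by 0.51 and 0.37. Trehalose and glycogen genes had higher footprints in both pairs for 12 of 15 members and lower for 0, against 27.2% and 30.6% of all genes. Their footprint medians were small, 0.05 and 0.08. The resting-cell sum given above was also higher at 8 h in both replicates. In replicate 1 this came mainly from SIP18 (8.75 and 32.8 mRNA RPKM) and GRE1 (20.2 and 29.1 mRNA RPKM), which are also on the general stress list, while SNO1 mRNA and SNZ1 footprints were lower at 8 h in both replicates. Its part in these changes was not tested.

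Heat shock chaperones had medians near 0. Of 34, 13 had higher and 4 lower mRNA in both pairs (medians 0.04 and 0.07), and 10 had higher and 9 lower footprints (medians 0.02 and −0.01). Of all genes, 25.5% had higher and 29% lower mRNA in both pairs, and 27.2% higher and 30.6% lower footprints. HSP104, the disaggregase, changed by −0.03 and 0.18 in mRNA and HSP82, the Hsp90 chaperone, by −0.11 and 0.19. HSP26, a small chaperone on chromosome II, was higher in both pairs, by 0.55 and 0.23, and SSA4, an inducible Hsp70, by 0.36 and 0.17.

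Cytosolic ribosome genes had lower median mRNA in both pairs, while their footprint medians differed in sign between the pairs. Of 139 ribosomal protein genes, 83 had lower mRNA in both pairs and 7 higher (medians −0.12 and −0.09), and 54 had lower and 9 higher footprints (medians 0.03 and −0.10). Of 111 ribosome biogenesis genes, 60 had lower and 13 higher mRNA (medians −0.12 and −0.10), while the footprint medians differed in sign, 0.11 and −0.11. TE of the biogenesis genes had medians of 0.22 and 0.01, with 49 higher and 6 lower in both pairs. Of all genes, 29% had lower and 25.5% higher mRNA in both pairs. For footprints these shares were 30.6% and 27.2%, and for TE 25.2% and 25%. YTM1, needed for 60S assembly, changed by −0.31 and −0.32 in mRNA and 0.09 and −0.05 in footprints. NOG2, a GTPase of 60S assembly, had TE changes of 0.47 and 0.29. RPL3 mRNA changed by −0.15 and −0.25. Paralogous ribosomal protein genes share sequence, and the sources used here do not say how their reads were divided. In 4Gts the ribosomal protein genes also had lower median mRNA, −0.04 and −0.36, with 78 genes lower and 9 higher in both pairs.

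Of 29 translation initiation genes, 9 had lower and 5 higher mRNA in both pairs (medians −0.07 and −0.06), against 29% and 25.5% of all genes. TIF4631 and TIF4632, which encode eIF4G1 and eIF4G2, changed by −0.07 and 0.03 and by −0.10 and 0.12 in mRNA, and PAB1, the poly(A)-binding protein, by 0.03 and −0.06. ACT1, actin, changed by 0.05 and 0.06 in mRNA and by 0.05 and 0.10 in footprints.

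**Figure D3:**
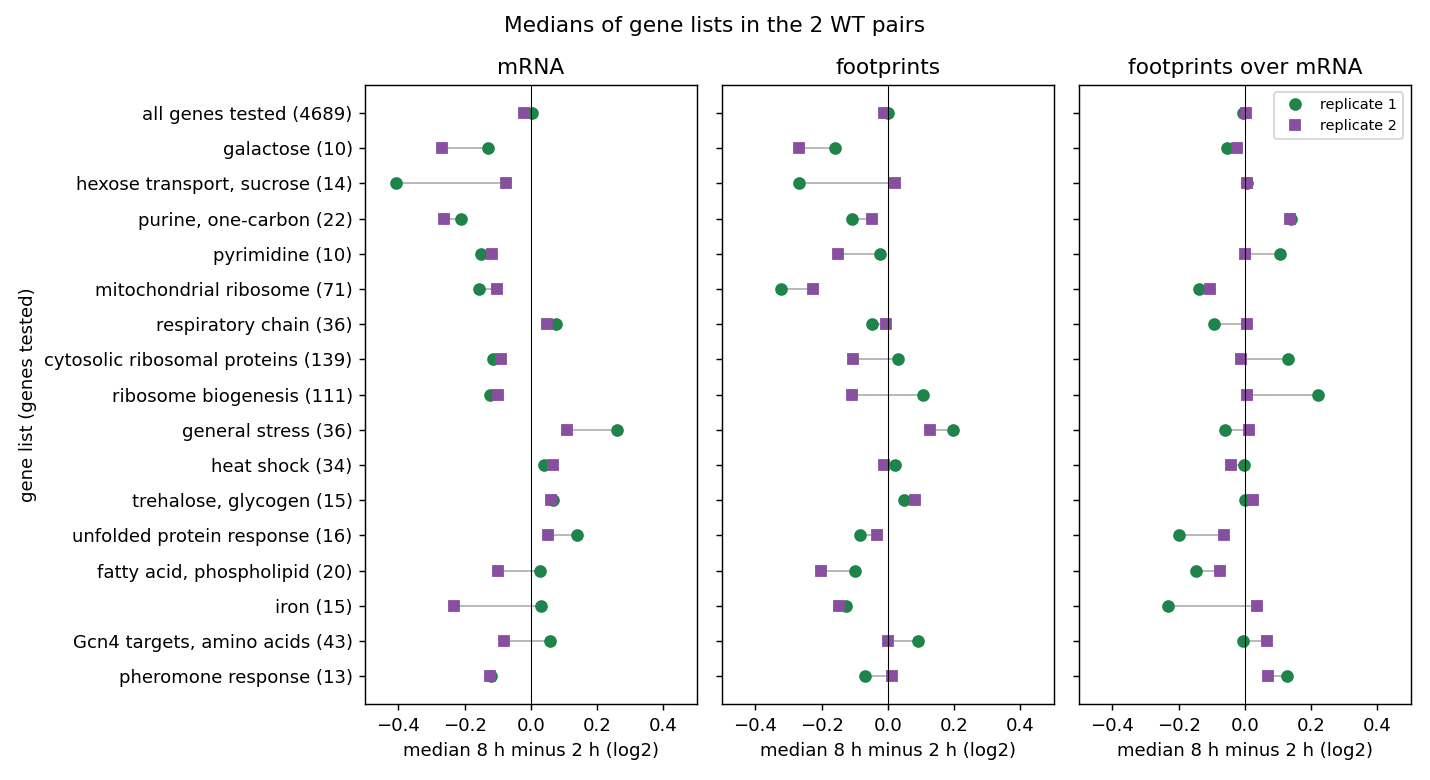
Median 8 h minus 2 h difference (log2) of 16 gene lists and of all 4689 genes tested, for mRNA, footprints and their ratio; circles are replicate 1, squares are replicate 2, and the number of genes tested is in brackets. In mRNA and footprints the mitochondrial ribosome and galactose lists lie left of 0 and the general stress list lies right of 0. For the ratio the general stress medians are −0.06 and 0.01. The purine list lies left of 0 for mRNA and right of 0 for the ratio.

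No gene passed the test in TE. Of the genes past 2-fold lower in both pairs, none has a RefSeq row, and they are described with the other unplaced frames. Among genes with a RefSeq row, the largest fall by the smaller of both pairs was the uncharacterised frame YKL106C-A, at −0.79 and −1.07, followed by CNN1, a kinetochore protein, at −0.65 and −0.68, GOT1, a Golgi transport protein, at −0.63 and −0.60, and GPI14 at −0.59 and −0.76. CNN1 had 7.25 and 10.9 mRNA RPKM in replicate 1 and 14.2 and 20.8 RPKM in replicate 2, with footprints of 22.0 and 19.8 RPKM in replicate 1 and 37.2 and 31.7 RPKM in replicate 2, so mRNA was higher and footprints lower at 8 h in both pairs. CBP4, for assembly of respiratory complex III, was at −0.63 and −0.55, and INO4, an activator of phospholipid genes, at −0.51 and −0.79. Genes among the 10 largest rises included SPT14, which starts glycolipid-anchor synthesis, at 0.55 and 0.51, PMU1 at 0.37 and 0.42, GAG1 at 0.36 and 0.40, and RSR1, the bud-site GTPase, at 0.38 and 0.35. None of these passed limma in the fit without pairs or in the blocked WT fit. Over 4609 genes, TE changes rose slightly with gene length (Spearman rank correlation 0.11 and 0.05 in replicates 1 and 2). Footprint changes did so too (0.16 and 0.03). YKL106C-A is 120 nt long, INO4 456 nt and GOT1 499 nt, while CNN1 is 1086 nt and GPI14 1212 nt. The part of length in the footprint and TE changes was not tested.

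Genes of the unfolded protein response had lower TE in both pairs for 10 of 16 members and higher for 0, against 25.2% and 25% of all genes (medians −0.20 and −0.06). Their mRNA was higher for 8 and lower for 0, against 25.5% and 29% of all genes. KAR2, the Hsp70 of the endoplasmic reticulum, changed by 0.21 and 0.11 in mRNA and by 0.01 and −0.06 in footprints. Fatty acid and phospholipid genes had lower footprints for 13 of 20 and higher for 2 (medians −0.10 and −0.20), and iron uptake and sparing genes had lower footprints for 11 of 15 and higher for 0 (medians −0.13 and −0.15), against 30.6% and 27.2% of all genes. The ergosterol list had lower footprints for 10 of 26 and higher for 7, and the peroxisome list lower for 6 of 21 and higher for 5. OLE1, the fatty acid desaturase, changed by −0.32 and −0.39 in footprints. CCC2, the copper pump that loads the iron oxidase, changed by −0.30 and −0.38 in footprints. In 4Gts the iron list also had lower footprints, with medians of −0.16 and −0.17 and with 8 genes lower and 1 higher in both pairs.

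Among reading frames without a row in the RefSeq table, YPR108W-A had 7.53 and 62.6 mRNA RPKM in replicate 1 and 12.2 and 48.8 RPKM in replicate 2, with footprints between 129 and 150 RPKM in all 4 libraries. Its mRNA at 8 h lay above 2 h without overlap and its footprints stayed level. Its TE changes were −2.71 and −1.69 (limma mean −2.20, SE 0.28, adjusted p = 0.141), and it was the gene with the lowest p in that layer. YDR278C behaved alike, with 91.0 and 980 mRNA RPKM in replicate 1 and 258 and 772 RPKM in replicate 2. YBR191W-A had lower footprints, 24.3 and 12.4 RPKM in replicate 1 and 7.34 and 2.64 RPKM in replicate 2. Whether these frames share reads with neighbouring genes was not tested.

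Genes of chromosome II were higher at 8 h as a group, a pattern noticed after the values were seen and given as a description. Over its 338 tested genes the median change was 0.18 and 0.12 for mRNA and 0.20 and 0.12 for footprints in replicates 1 and 2. The medians of the other 15 nuclear chromosomes lay between −0.03 and 0.08 and between −0.08 and −0.01 for mRNA, and between −0.02 and 0.03 and between −0.04 and 0.00 for footprints. Relative to all other genes, chromosome II was 1.14-fold and 1.10-fold higher in mRNA and 1.15-fold and 1.11-fold higher in footprints. In mRNA 222 of 338 genes (65.7%) and in footprints 227 of 338 (67.2%) were higher in both pairs, against 25.5% and 27.2% of all genes tested. The TE medians of the chromosome were 0.01 and 0.00.

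The shift ran along the whole chromosome. Divided into 8 consecutive stretches of 42 or 43 genes, its medians were between 0.12 and 0.22 in replicate 1 and between 0.07 and 0.16 in replicate 2 for mRNA, and between 0.09 and 0.24 and between 0.10 and 0.15 for footprints. Chromosome II supplied 18 of the 48 genes (1.02%) that were higher by at least 0.32 on the log2 scale in mRNA in both pairs, 8 of 24 (0.512%) for footprints and 7 of the 18 that rose in the blocked WT fit, and 0 of the 28 (0.597%), 55 (1.17%) and 27 on the lower side. It holds 7.21% of the genes tested. Frames without a RefSeq row had no chromosome assigned and are not counted on it in these numbers. Among the blocked calls they include YBR191W-A, which fell, and YBR116C and YBR141W-A, which rose. Their YBR names are of the form used for chromosome II genes, so the 0 of the 55 and of the 27 leaves out YBR191W-A. Named risers on it include UGA2, succinate semialdehyde dehydrogenase (footprint changes 0.55 and 0.63), GPX2, a glutathione peroxidase (0.57 and 0.61), CTP1, the mitochondrial citrate carrier (0.46 and 0.46), TKL2, the minor transketolase (1.02 and 0.38), MNC1 (0.64 and 1.04) and, for mRNA, YRO2, a plasma membrane protein (0.53 and 0.60), and ALG14, of N-glycan synthesis (0.55 and 0.62). GAL1, GAL10 and GAL7 are on the same chromosome and had lower footprints in both pairs. Without chromosome II, 53.1% of genes had the same sign in both pairs for mRNA and 56.4% for footprints.

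**Figure D4:**
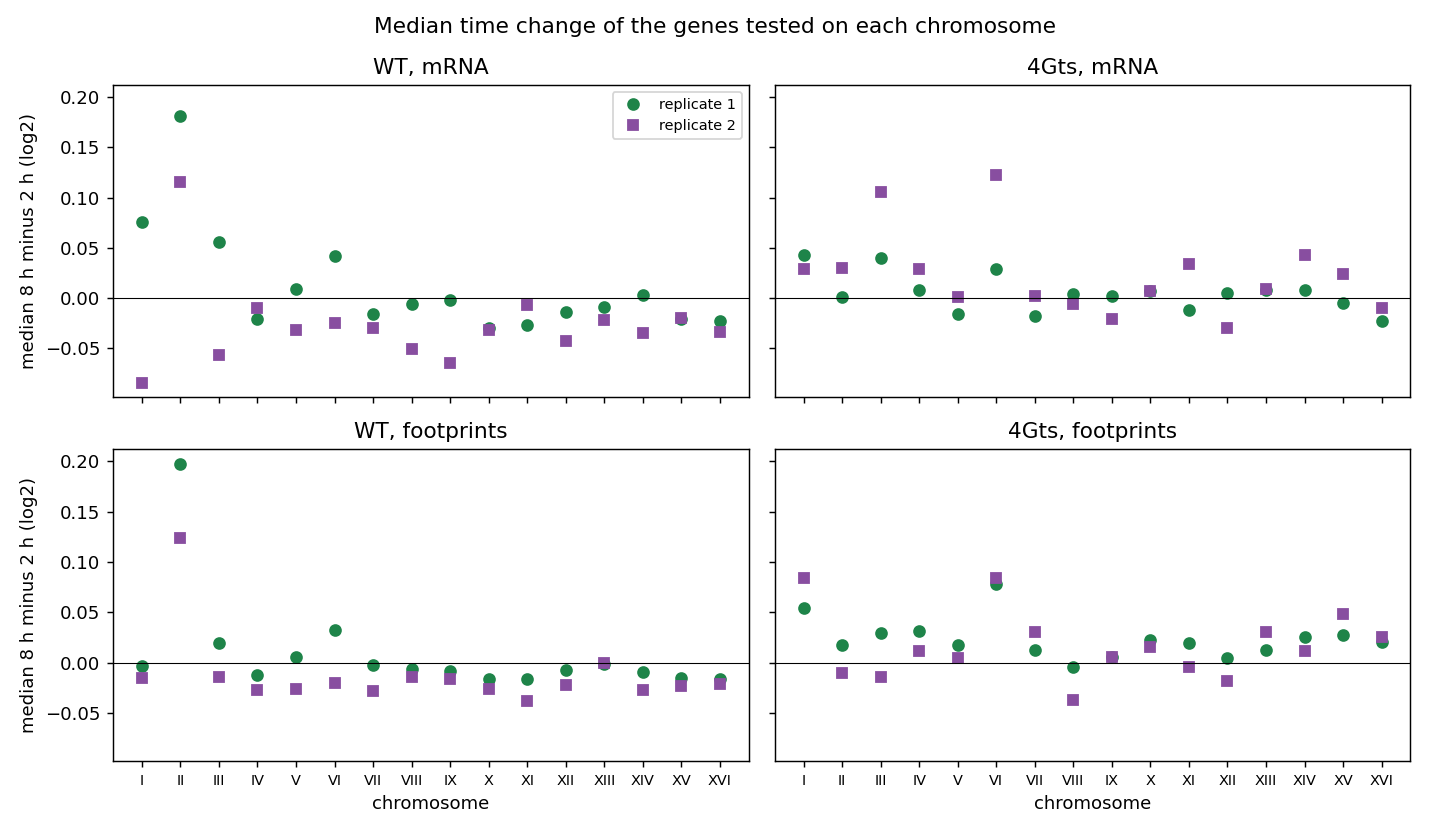
Median 8 h minus 2 h difference (log2) of the genes tested on each of the 16 nuclear chromosomes, for mRNA (top) and footprints (bottom) in WT (left) and 4Gts (right); circles are replicate 1 and squares are replicate 2. Chromosome II has the highest median of both replicates in WT (0.18 and 0.12 for mRNA, 0.20 and 0.12 for footprints) and lies near 0 in 4Gts.

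In 4Gts the chromosome was level between the times. There the chromosome II genes had median changes, relative to all other genes, of 0.00 and 0.02 for mRNA and 0.00 and −0.03 for footprints. Set against the mean of all 8 SC cultures, the chromosome's mRNA level was 0.07 and 0.09 in WT at 2 h, 0.25 and 0.21 in WT at 8 h, and between −0.17 and −0.13 in the 4 cultures of 4Gts. WT minus 4Gts for chromosome II mRNA, relative to all other genes, was 0.26 and 0.18 at 2 h and 0.42 and 0.37 at 8 h. In the cultures grown in YPA medium, with 1 sample a strain and time, the same difference was 0.03 before galactose and the shift, 0.00 after galactose and 0.12 after 2 h at 36 °C for mRNA, and 0.04, 0.01 and 0.04 for footprints, with no replicate check. Chromosomal DNA content was not analysed here, and the cause of the shift was not tested.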

How the data were processed

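Footprints and total mRNA were sequenced from 4 WT samples in SC, and the same from 4 samples of 4Gts, which enter the fits to share the estimate of spread. The authors deposited RPKM per reading frame for each library and the ratio of footprints to mRNA; per the submitters' processing notes, TopHat, DESeq and the sacCer3 build were used, with versions not given in the sources used here. In the deposited ratio table the 4Gts columns are named 4Gd and were matched through the series' design text.

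From the RPKM, reading frames averaging 10 RPKM or more over the 8 samples, in both layers, were kept (4689 of 6692, of which 4609 matched a RefSeq row of assembly R64). Values were rescaled by the median ratio (WT factors 0.9 to 1.06 for mRNA, 0.893 to 1.00 for footprints), 1 RPKM was added and log2 was taken; TE is the difference of the scaled log2 values, and the deposited ratio served as an alternative. limma 3.58.1 in R 4.3.3 fitted 4 group means over 8 samples, with Benjamini-Hochberg adjustment over all genes. An exact permutation test over 2 against 2 samples cannot go below p = 0.333, so none is given. Fits were tested on simulated data.

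Whether numbers pair samples was checked from deviations: the replicate difference at 2 h correlated with that at 8 h with r = 0.93, 0.96 and 0.60 in WT and 0.77, 0.88 and 0.43 in 4Gts (mRNA, footprints, TE). Each strain gives 1 such value. The labels do not say what a number shares. Blocked values are therefore printed where they change a call.

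Depth was recovered as the depth at which low RPKM values give whole reads, within 0.05 of a read, using reading-frame length less 24 nt, a setting found from the values (81.4% to 89.3% of low values came out whole); too few did for a count test. Named genes are the 10 largest rises and falls of each layer by the smaller of both pair differences, leading members of each gene list, and preset genes. Members, comparisons and 47 gene lists were chosen with earlier results of these data known. The chromosome medians, the use of the YPA tables for them, the counts at the 0.32 log2 threshold and the blocked-fit genes named by function were chosen after seeing values.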

Additional observations from a re-analysis of the deposited data

Results flagged for a closer look

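Those of the 47 lists with at least 10 genes tested were each looked at in mRNA, footprints and TE. In 10 of these combinations the median moved one way in both WT pairs and the opposite way in both 4Gts pairs. The rule looks at sign alone, and whether 10 is more than random signs would give was not tested. Some of the medians were close to 0, such as −0.0047 and −0.0042 for respiratory chain and peroxisome footprints in WT replicate 2. The difference between the strains was not tested for any list. For mRNA of the mitochondrial ribosome (71 genes) the mean of the WT medians was −0.13 (−0.16 and −0.10), against 0.07 and 0.16 in 4Gts. For mRNA of hexose transport and sucrose (14 genes) it was −0.24 (−0.41 and −0.07), against 0.00 and 0.22. For mRNA of methionine and sulfur (18 genes) it was 0.050 (0.08 and 0.02), against −0.18 and −0.28, and for mRNA of the proteasome (33 genes) −0.045 (−0.07 and −0.02), against 0.08 and 0.18. For footprints of the unfolded protein response (16 genes) it was −0.059 (−0.09 and −0.03), against 0.27 and 1.02. For footprints of genes with upstream frames (15 genes) it was −0.10 (−0.09 and −0.11), against 0.11 and 0.19. For footprints of the respiratory chain (36 genes) it was −0.026 (−0.05 and 0.00), against 0.17 and 0.03, and of peroxisomes and fatty acid breakdown (21 genes) −0.011 (−0.02 and 0.00), against 0.10 and 0.26. For TE of galactose genes (10 genes) it was −0.038 (−0.05 and −0.02), against 0.12 and 0.21, and of fatty acid and phospholipid genes (20 genes) −0.11 (−0.15 and −0.07), against 0.06 and 0.15. No group has the 4 samples that a test for a single outlying sample needs.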

How the results depend on the processing

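The count of genes past the threshold was 0 for mRNA in all alternatives run. For footprints it was 45 with the replicate block within WT only, and 0 with the replicate block over both strains and in the other alternatives. For TE it was 1 (YPR108W-A, lower) under a random block of strain and number and with the authors' deposited ratio, and the count for the strain difference of the time change in TE, 0 as reported, was 1 (the same gene) under a mean of at least 30 RPKM, no further scaling, the replicate block by number alone, the random block and the deposited ratio, and 1 (YBR191W-A) without 4Gts 8 h replicate 1. Leaving out 1 culture gave 0 to 1 there and 0 elsewhere. Genes past a 2-fold change in both pairs, 3, 0 and 3 for mRNA, footprints and TE, became 6, 11 and 9 at 1.5-fold, and 1 for footprints with 0.1 RPKM added. Leaving out a replicate leaves no second pair, so these have no such value. Chromosome II less all other genes was 0.17 for mRNA and 0.18 for footprints over both pairs; leaving out 1 WT culture gave 0.15 to 0.18 and 0.13 to 0.18 (lowest, 0.13, without WT 8 h replicate 1). Among 85 gene results, a turn of direction was counted only where the reported value exceeded 1 SE. By that rule 2 turned, YKL106C-A and YOL038C-A in TE, both without WT 8 h replicate 2. Leaving out 1 WT sample gave −1.87 to 0.0100 and −1.39 to 0.0698 for them. The cause of these turns was not tested. Values within 1 SE, such as the FLO11, UGA2 and ERR1 footprint changes, could not be counted, so the 2 do not show that other results keep their direction. ERR1 footprints were 85.7 RPKM at 2 h in replicate 2 and 8.98 RPKM at 8 h in replicate 1. Their direction therefore depends on which samples are kept. The galactose, mitochondrial ribosome, purine and general stress medians kept their sign under the pseudocounts, filter and scalings tried. Promoter motifs were not run. Depth limits low genes, and 2 pairs limit all.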
